A study of Mus musculus with 16 samples.

Results

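Left ventricles of mutant mice given a Tnpo3 virus were compared with those of wild-type mice given a control virus. The 8 libraries (4 P635L Tnpo3 and 4 WT Ctr) were taken by their labels from the 16 of the series, and no measured value chose them. All mice were Bl6J, male or female. P635L Tnpo3 mice were homozygous for the P635L missense mutation of RBM20 and had received AAV9 carrying the Tnpo3 cDNA. WT Ctr mice were wild type for RBM20 and had received AAV9 with a control construct that expresses Cre recombinase (iCre) and green fluorescent protein (eGFP) from the CAG promoter. Each mouse got 1e12 viral genomes into a tail vein at the age of 4 weeks, and the heart was taken 12 weeks later, at 16 weeks. The comparison asks which differences from wild type were present in treated mutant hearts. The groups differ in genotype and in virus, so the effects of the 2 cannot be told apart in it. Values of the 4 P635L Ctr mice (mutant, control virus) and of the 4 WT Tnpo3 mice are given beside some results, and comparisons made against WT Ctr share the same WT Ctr libraries.

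RBM20 is a nuclear splicing repressor of heart and skeletal muscle that keeps chosen exons out of the transcripts of titin and of other sarcomere and calcium-handling proteins. Mutations in its arginine- and serine-rich stretch, where P635L lies, leave the protein in the cytoplasm, and hearts that carry them dilate. Tnpo3 encodes transportin 3, an import receptor that carries proteins with such a stretch into the nucleus.

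Of the 8 libraries, the smallest held 28493249 counts (WT Ctr replicate 1) and the largest 48155174 (P635L Tnpo3 replicate 3). The spread between mice was wider in WT Ctr, with a biological coefficient of variation of 0.329 against 0.175 in P635L Tnpo3. A single gene, ENSMUSG00000119584, held 19.96% and 21.22% of counts in WT Ctr replicates 2 and 4 and at most 5.17% in the other 6 libraries. WT Ctr replicate 4 was the 1 library of the 8 with more Xist than Y-linked counts. Expression is given as CPM, counts scaled to library size with TMM factors. The edgeR p-values set differences against the spread between mice, estimated per gene over all 16 libraries.

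Tnpo3 (ENSMUSG00000012535, GRCm39 chr6:29540826-29609886) checked the labels. Its level was 43.6, 49.4, 41.6 and 44.8 CPM in WT Ctr and 359, 723, 543 and 234 CPM in P635L Tnpo3. All treated mutant hearts stood above all wild-type hearts, and among them replicate 2 was highest and replicate 4 lowest. The fold was 10.4 (3.37 on the log2 scale, SE 0.30, edgeR adjusted p = 9.57e-06), and the two-sided exact permutation p was 0.0286, the smallest value that 4 against 4 mice allow. Irf5 overlaps Tnpo3 on the other strand, and whether counting used strand is not given in the sources used here. Rbm20 itself was at 167 to 333 CPM in WT Ctr and 195 to 251 CPM in P635L Tnpo3, which did not pass the test (-0.12 on the log2 scale, SE 0.20, edgeR adjusted p = 0.792).

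Across all genes, 573 of 18662 (3.07%) differed at an edgeR adjusted p under 0.05, 278 (1.49%) of them higher and 295 (1.58%) lower in P635L Tnpo3, and their median absolute change was 1.07 on the log2 scale. In 543 of the 573 the libraries of one group did not overlap those of the other, against 11.7% of all genes tested. At least a 2-fold change was reached by 145 higher and 162 lower genes. The authors' deposited table, made with DESeq2, holds 1198 genes with an adjusted p under 0.05, and 568 of the 573 are among them. Upper-quartile scaling moved the balance to 350 higher and 246 lower genes, and leaving out P635L Tnpo3 replicate 4 left 282 genes in all.

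**Figure D1:**
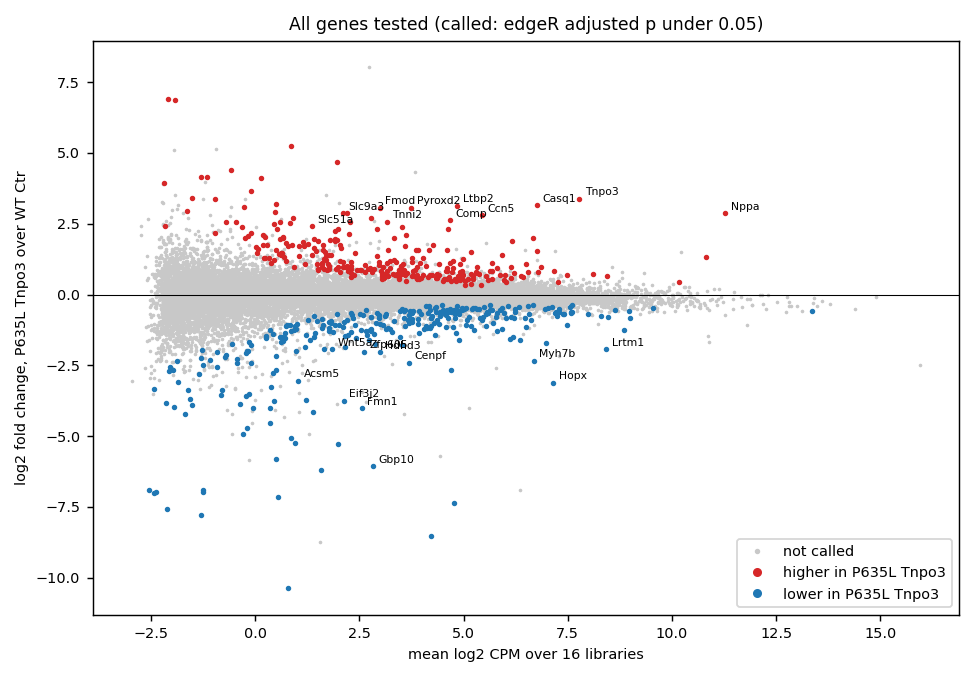
Each point is 1 of the 18662 genes tested, with mean log2 CPM over the 16 libraries on the x axis and the log2 fold change of P635L Tnpo3 over WT Ctr on the y axis. Red points (278) were higher and blue points (295) lower at an edgeR adjusted p under 0.05, and labels mark genes among the largest changes in each direction, from Tnpo3 at 3.37 to Gbp10 at -6.07.

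The genes named one by one were taken from those called without overlap between the groups, so that their libraries stand apart is part of the rule. Among those that rose most were genes of a skeletal-type calcium store and thin filament. Casq1 (ENSMUSG00000007122, chr1:172037461-172047435), the calsequestrin of fast skeletal muscle, was at 10.4, 12.2, 9.54 and 8.58 CPM in WT Ctr and at 119.6, 71.5, 94.8 and 73.8 CPM in P635L Tnpo3. The lowest treated mutant heart was thus far above the highest wild-type heart, and the fold was 8.85 (3.15 on the log2 scale, SE 0.23, edgeR adjusted p = 6.17e-07). Tnni2 (chr7:141995545-141998147), the inhibitory troponin of fast skeletal muscle, was at 2.89, 2.48, 1.92 and 1.91 CPM in WT Ctr and at 17.0, 7.90, 16.3 and 13.3 CPM in P635L Tnpo3. P635L Tnpo3 replicate 2 was the lowest of its group, and the change was 2.57 on the log2 scale (SE 0.28, edgeR adjusted p = 4.26e-05). Casq1 overlaps Gm17224 on the other strand.

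Nppa (ENSMUSG00000041616, chr4:148085179-148086536), which encodes atrial natriuretic peptide and is used as a marker of load on the ventricle, was at 219.9, 400.3, 289 and 148 CPM in WT Ctr. In P635L Tnpo3 it was at 1094, 1198, 916 and 4506 CPM. Every treated mutant heart lay above every wild-type heart, but replicate 4 stood nearly apart from the other 3. The fitted change was 2.87 on the log2 scale (SE 0.48, edgeR adjusted p = 0.00341). Fitted to these 8 libraries alone, or without WT Ctr replicates 2 and 4, the call was lost, and the highest adjusted p over 17 alternatives was 0.075. In P635L Ctr hearts the mean was 7544 CPM.

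Genes of the matrix and its growth factors followed. Ltbp2 (chr12:84829986-84923306), a protein of elastic fibres related to the binders of latent TGF-beta, was at 6.62, 3.59, 3.23 and 2.67 CPM in WT Ctr and at 17.2, 40.5, 15.8 and 66.3 CPM in P635L Tnpo3 (3.13 on the log2 scale, SE 0.50, edgeR adjusted p = 0.00303). Ccn5 (chr2:163662781-163675066), a secreted matricellular protein, was at 11.7, 11.6, 16.2 and 2.14 CPM against 41.7, 84.7, 62.2 and 101 CPM (2.80 on the log2 scale, SE 0.56, edgeR adjusted p = 0.0157). Within P635L Tnpo3, replicates 2 and 4 were the 2 highest libraries for both, as they were for Fmod and Comp. Fmod, a collagen-binding proteoglycan, rose by 3.06 on the log2 scale, and Comp, a cartilage matrix protein, by 2.63. Without WT Ctr replicates 2 and 4 none of these 4 was called by edgeR, with an adjusted p of 0.101 for Ltbp2. The call for Comp was lost in 10 of 17 alternatives, that for Ccn5 in 3 of 17 and that for Fmod in 2 of 16.

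The other genes named among those that rose were not of muscle or matrix. Slc9a3 (chr13:74269576-74317561), a sodium-proton exchanger known from kidney and gut, was at 0.687, 1.11, 1.10 and 0.956 CPM in WT Ctr and at 7.47, 6.21, 7.82 and 6.66 CPM in P635L Tnpo3. The treated mutant hearts were tightly grouped and well above all wild-type hearts (2.86 on the log2 scale, SE 0.25, edgeR adjusted p = 2.33e-06). The mean in P635L Ctr was 7.13 CPM, and P635L Tnpo3 did not differ from P635L Ctr beyond the spread between mice (-0.02 on the log2 scale, SE 0.24, edgeR adjusted p = 0.981). Pyroxd2, a mitochondrial protein of the oxidoreductase family, rose by 3.06, and Slc51a, a subunit of an organic solute transporter, by 2.40 on the log2 scale.

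Of the 12 genes named for the largest falls, Hopx (ENSMUSG00000059325, chr5:77234835-77262968) had one of the highest wild-type levels. It encodes a homeodomain-only protein that does not bind DNA and acts in heart development. Its level was 264, 245, 303 and 258 CPM in WT Ctr and 32.7, 43.1, 32.6 and 15.02 CPM in P635L Tnpo3. No treated mutant heart came near the wild-type range, and the level was 8.66-fold lower (-3.11 on the log2 scale, SE 0.28, edgeR adjusted p = 8.46e-06). It was lower still in P635L Ctr, at a mean of 3.82 CPM, and P635L Tnpo3 lay above P635L Ctr by 3.00 on the log2 scale (edgeR adjusted p = 2.47e-05).

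Myh7b (ENSMUSG00000074652, chr2:155453132-155476227), a slow myosin heavy chain gene that also hosts a microRNA, was at 162, 184, 273 and 279 CPM in WT Ctr and at 48.0, 50.5, 33.9 and 44.7 CPM in P635L Tnpo3. All treated mutant hearts were below all wild-type hearts, 5.08-fold in the fit (-2.34 on the log2 scale, SE 0.27, edgeR adjusted p = 9.19e-05). Lrtm1 (chr14:28740165-28755602), which encodes a membrane protein with leucine-rich repeats, was at 564, 570.2, 574 and 649 CPM against 154, 116, 159 and 187 CPM (-1.93 on the log2 scale, SE 0.19, edgeR adjusted p = 1.23e-05). Wild-type replicate 4 was above the other 3, which lay close together. Hopx overlaps Hopxos, and Myh7b overlaps Trpc4ap, on the other strand.

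A metabolic enzyme was among the genes that fell as well. Acsm5, a mitochondrial acyl-CoA synthetase for medium-chain fatty acids, was at 7.53, 3.88, 4.77 and 3.51 CPM in WT Ctr and at 0.513, 0.766, 0.584 and 0.501 CPM in P635L Tnpo3 (-3.05 on the log2 scale, SE 0.46, edgeR adjusted p = 0.000998). It was low in every treated mutant heart, and above P635L Ctr by 2.35 on the log2 scale (edgeR adjusted p = 0.0208). Acsm5 overlaps Pdilt on the other strand.

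Cenpf, a kinetochore protein that in heart muscle cells is known to take part in organising microtubules, fell from 16.5, 15.9, 26.9 and 27.8 CPM to 3.71, 5.62, 4.96 and 2.02 CPM (-2.42 on the log2 scale, SE 0.29, edgeR adjusted p = 0.00015). No other gene of the cell-cycle list of 24 was called, so its share was 4.17%, near the 3.07% of all genes. Wnt5a, a secreted ligand of non-canonical Wnt signalling, fell by 1.93, Hdhd3, a protein of the haloacid dehalogenase family, by 2.04 and Zfp605, a zinc finger protein, by 2.02 on the log2 scale.

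In 3 of the genes that fell most, the level within a group was far from even. That group was WT Ctr for Gbp10 and WT Tnpo3, outside the comparison, for Fmn1 and Eif3j2. Gbp10, a guanylate-binding protein induced by interferon, was at 86.5, 3.59, 3.75 and 6.46 CPM in WT Ctr and at 0.195, 0.806, 0.214 and 0.25 CPM in P635L Tnpo3 (-6.07 on the log2 scale, SE 1.17, edgeR adjusted p = 0.013). WT Ctr replicate 1 carried the mean of its group, and over 15 alternatives the log2 fold change ranged from -6.86 to -3.63. Fmn1, an actin-nucleating formin, was at 11.8, 16.2, 13.2 and 18.7 CPM in WT Ctr and at 1.10, 0.845, 0.759 and 0.982 CPM in P635L Tnpo3 (-4.02 on the log2 scale, SE 0.65, edgeR adjusted p = 0.00296). Eif3j2, which encodes a subunit of translation initiation factor 3, was at 11.0, 12.7, 9.45 and 8.37 CPM against 0.659, 1.04, 0.564 and 0.77 CPM (-3.76 on the log2 scale, SE 0.73, edgeR adjusted p = 0.0113). Outside the 2 groups, WT Tnpo3 hearts were split for both of these genes. In WT Tnpo3, Fmn1 was low in replicates 1 (1.31 CPM) and 4 (1.55 CPM) and high in replicates 2 (12.6 CPM) and 3 (13.2 CPM). For Eif3j2 the same mice stood apart, at 0.668 and 0.793 CPM against 10.6 and 11.2 CPM. Gbp10 and Eif3j2 each lost their call without P635L Tnpo3 replicate 4, with edgeR adjusted p-values of 0.112 at most for Gbp10 and 0.0519 for Eif3j2.

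**Figure D2:**
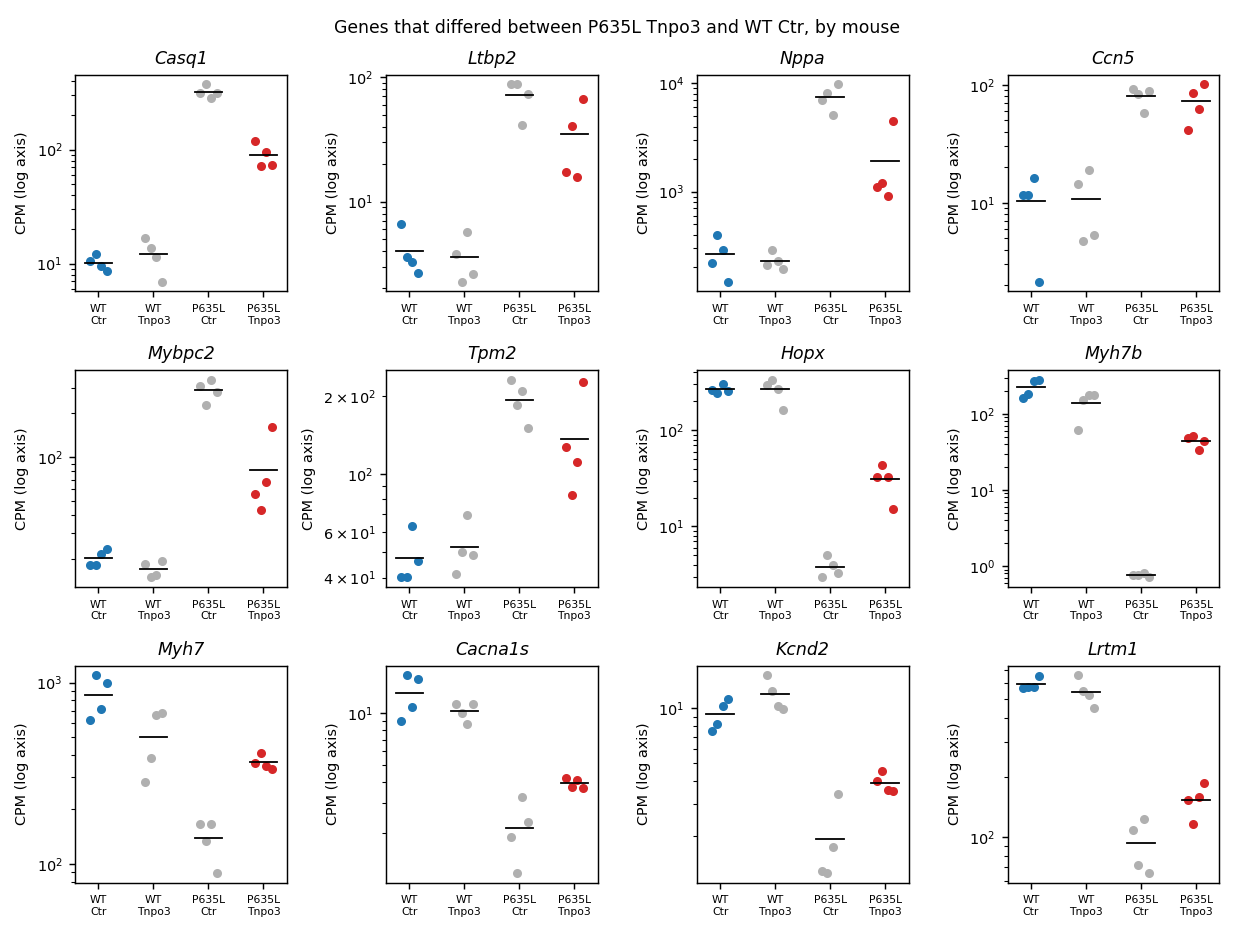
Each panel shows 1 gene, with CPM on a log axis, 1 point per mouse and a bar at the mean of 4 mice. WT Ctr (blue) and P635L Tnpo3 (red) do not overlap in any of the 12 panels, and the other 2 groups (grey) are shown for their levels, as for Hopx, at a mean of 3.82 CPM in P635L Ctr and 30.9 CPM in P635L Tnpo3.

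The gene lists used here and below were chosen with earlier results of these data known. Their shares of called genes, given beside that of all genes, are descriptions and not tests of the lists. The sarcomere list held 29 tested genes, of which 5 rose and 5 fell (34.5% called, against 3.07% of all genes). The median log2 fold change was -0.27 against -0.05 over all genes. Those that rose encode proteins known mainly from skeletal or fetal muscle. Besides Tnni2, they were Mybpc2, the fast myosin-binding protein C, Tnnt3, the fast troponin T, Tpm2, beta-tropomyosin, and Myom3, a myomesin of the M-band. Mybpc2 was at 18.02, 18.2, 21.6 and 23.4 CPM in WT Ctr and at 55.6, 43.4, 67.0 and 160.1 CPM in P635L Tnpo3 (2.00 on the log2 scale, SE 0.31, edgeR adjusted p = 0.00164). Tpm2 was at 40.2, 40.2, 63.4 and 46.5 CPM against 127, 83.1, 111 and 227 CPM (1.53 on the log2 scale, SE 0.26, edgeR adjusted p = 0.00302). Every treated mutant heart was above every wild-type heart, and replicate 4 was the highest treated mutant heart for both. Tnnt3 rose by 1.66 and Myom3 by 1.22 on the log2 scale. Without WT Ctr replicates 2 and 4, Mybpc2 (edgeR adjusted p = 0.0622) and Tpm2 (0.103) were no longer called.

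The 5 sarcomere genes that fell were Myh7b, Mybphl, Myh7, Tnnt1 and Tpm1. Myh7 (chr14:55208141-55232083), the slow or beta myosin heavy chain, was at 619, 1095, 717 and 991 CPM in WT Ctr and at 361, 409, 348 and 333 CPM in P635L Tnpo3. All treated mutant hearts were below the wild-type range (-1.24 on the log2 scale, SE 0.26, edgeR adjusted p = 0.0153). Tpm1, alpha-tropomyosin, was at 14030, 14236, 12862 and 9926 CPM against 8295, 8507, 8593 and 8524 CPM (-0.59 on the log2 scale, SE 0.13, edgeR adjusted p = 0.0144). Tnnt1, the slow skeletal troponin T, fell by 0.83 on the log2 scale, and Mybphl, a protein related to myosin-binding protein H, was at 0.33 to 1.05 CPM in WT Ctr and at 0 to 0.0973 CPM in P635L Tnpo3. Myh7, Tpm1 and Mybphl were no longer called without P635L Tnpo3 replicate 4, Myh7 and Tpm1 also without WT Ctr replicate 2, and Mybphl also without P635L Tnpo3 replicate 2. Over all alternatives the highest edgeR adjusted p was 0.196 for Myh7, 0.0614 for Tpm1 and 0.0602 for Mybphl. Several genes on the other strand overlap Myh7, among them Mhrt.

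The heart-stress list held 14 tested genes, of which 3 rose (Nppa, Ankrd1 and Gdf15) and 1 fell (Myh7), with a median log2 fold change of 0.28. These calls made up 28.6% of the list, against 3.07% of all genes. Ankrd1, a stretch-responsive protein of the I-band, was at 968, 604, 1060 and 453 CPM in WT Ctr and at 1655, 1844, 1495 and 2755 CPM in P635L Tnpo3, without overlap (1.33 on the log2 scale, SE 0.32, edgeR adjusted p = 0.032). Gdf15, a secreted stress cytokine of the TGF-beta family, was at 2.68, 2.97, 1.12 and 0.464 CPM against 4.69, 12.8, 5.001 and 12.9 CPM (2.32 on the log2 scale, SE 0.47, edgeR adjusted p = 0.0117). Its mean in P635L Ctr was 3.39 CPM, below that of 8.85 CPM in P635L Tnpo3, and the difference between these 2 groups was 1.38 on the log2 scale (edgeR adjusted p = 0.0982). Nppb, brain natriuretic peptide, and Acta1, skeletal actin, did not pass the test, with log2 fold changes of 0.77 (edgeR adjusted p = 0.241) and 1.48 (edgeR adjusted p = 0.303). Both groups were wide for Acta1, at 158 to 1609 CPM and at 670.2 to 5209 CPM, with replicate 4 again the highest treated mutant heart. Without that replicate the median of the list was -4.39e-05 and 2 genes were called, and without WT Ctr replicates 2 and 4 only 1 gene was. The call for Ankrd1 was lost in 6 of 17 alternatives and that for Gdf15 in 1.

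Of 28 calcium-handling genes tested, 3 rose and 1 fell (14.3% called, against 3.07% of all genes, with a median log2 fold change of -0.20). Ryr1, the calcium release channel of skeletal muscle, was at 1.01, 0.619, 0.329 and 0.319 CPM in WT Ctr and at 2.20, 1.45, 1.63 and 3.60 CPM in P635L Tnpo3 (1.98 on the log2 scale, SE 0.49, edgeR adjusted p = 0.0352). Cacna1g, a T-type calcium channel, was at 13.6, 15.1, 20.3 and 24.1 CPM against 41.1, 35.02, 40.9 and 28.1 CPM (0.99 on the log2 scale, SE 0.17, edgeR adjusted p = 0.0027). Cacna1s, the L-type channel of skeletal muscle, fell from 9.05, 16.6, 10.9 and 15.9 CPM to 4.22, 3.71, 4.09 and 3.70 CPM (-1.74 on the log2 scale, SE 0.24, edgeR adjusted p = 0.000445). Casq1 and Ryr1 thus rose while Cacna1s, a channel of the same skeletal release unit, fell. The call for Ryr1 was lost in 8 of 17 alternatives and those for Casq1, Cacna1g and Cacna1s in none.

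Of 25 ion-channel genes, 2 rose and 1 fell (12% called, against 3.07% of all genes). Hcn2, a pacemaker channel, rose by 0.75 on the log2 scale, and Kcnd2, a subunit of the transient outward potassium current, fell. Kcnd2 was at 7.53, 8.21, 10.2 and 11.2 CPM in WT Ctr and at 4.03, 4.54, 3.58 and 3.52 CPM in P635L Tnpo3, without overlap (-1.25 on the log2 scale, SE 0.25, edgeR adjusted p = 0.01). Among 23 genes of adrenergic, natriuretic and renin signalling (21.7% called), Ace, the angiotensin-converting enzyme, rose by 0.79. Adra1a, an alpha-1 adrenergic receptor, fell by 1.28, Ednra, an endothelin receptor, by 0.73, Npr3, the clearance receptor of natriuretic peptides, by 0.71 and Pde3a, a cyclic nucleotide phosphodiesterase, by 0.66 on the log2 scale. Npr3 was at 10.7, 15.7, 14.7 and 12.0 CPM in WT Ctr, at 6.78, 6.31, 8.83 and 10.5 CPM in P635L Tnpo3 and at a mean of 16.8 CPM in P635L Ctr. P635L Tnpo3 was below both other groups for Npr3, with an edgeR adjusted p of 0.0306 against WT Ctr and of 0.00195 against P635L Ctr. Without WT Ctr replicate 2, no gene of this signalling list was called by edgeR's test, while DESeq2 on all libraries called 2 higher and 4 lower. The calls for Ace, Ednra and Pde3a were each lost in 9 of 17 alternatives, that for Npr3 in 8, that for Adra1a in 6, that for Hcn2 in 5 and that for Kcnd2 in 2.

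The extracellular matrix list held 41 genes, of which 6 rose (14.6%, against 3.07% of all genes), with 32 positive fold changes and a median of 0.32. They were Ltbp2, Fmod, Ccn5 and Comp, together with Mfap4, a microfibril-associated protein (log2 fold change 1.41), and Col8a1, a short-chain collagen (1.11). The fibrillar collagen gene Col1a1 was at 108 to 236 CPM in WT Ctr and at 133 to 217 CPM in P635L Tnpo3 (0.12 on the log2 scale, SE 0.23, edgeR adjusted p = 0.818). Of 25 genes of TGF-beta and BMP signalling, 4 rose (16%). These were Ltbp2, Ltbp3 (0.64), which binds latent TGF-beta, and the ligands Bmp4 (0.70) and Gdf6 (1.98). All 4 lost their call without WT Ctr replicates 2 and 4. Without P635L Tnpo3 replicate 4, 2 matrix genes were called, and without WT Ctr replicates 2 and 4, 0 were by edgeR's quasi-likelihood test. With all libraries DESeq2 called 9. The call for Col8a1 was lost in 9 of 17 alternatives, that for Mfap4 in 7, that for Bmp4 in 5, that for Ltbp3 in 3 and that for Gdf6 in 8 of 16.

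Of 23 cardiac transcription factors, 3 fell (13%, against 3.07% of all genes). Beside Hopx these were Tbx5 (log2 fold change -0.64) and Hand2 (-0.78), T-box and helix-loop-helix factors of heart development, whose calls were each lost in 8 of 17 alternatives. The list's median was -0.29, and Hopx alone was called without WT Ctr replicate 2 or without P635L Tnpo3 replicate 4. Fatty acid oxidation had 1 called gene of 25 (4%, near the 3.07% of all genes), Acot1, a cytosolic acyl-CoA thioesterase (log2 fold change -1.17), not called without WT Ctr replicate 2. Its other members were not called one by one, although 24 of 25 fold changes were negative, with a median of -0.31. Glucose metabolism also had 1 of 25 (4%), Pygb, a glycogen phosphorylase (-0.48), with a median of -0.35, and its call was lost in 11 of 17 alternatives. Of 22 genes of serine and one-carbon metabolism under ATF4, 1 was called (4.55%), Gdf15, and the median was 0.28. Such shares are close to that of all genes, and by number of calls none of the 3 lists stood apart. In glucose metabolism 19 of 25 fold changes were negative, and in the serine list 16 of 22 were positive. The lean of the fold changes in these lists was not tested.

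Genes of splicing and nuclear import differed little in number. Of 24 genes of serine- and arginine-rich proteins and their import, Tnpo3 alone was called (4.17%, near the 3.07% of all genes). Among 19 splicing regulators, Rbfox1, an activator of muscle exons, was called (5.26% of the list). Its level was 12.4, 20.1, 15.5 and 26.0 CPM in WT Ctr and 11.9, 8.39, 12.1 and 5.82 CPM in P635L Tnpo3 (-0.96 on the log2 scale, SE 0.23, edgeR adjusted p = 0.0267). The groups were close to touching, and the call was lost in 8 of 17 alternatives. By edgeR's adjusted test 0 genes were called among 22 of the interferon list (10 at an unadjusted p under 0.05, and 2 called by DESeq2), 18 of the clock (1 and 1) and 24 of proteostasis (7 and 2).

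**Figure D3:**
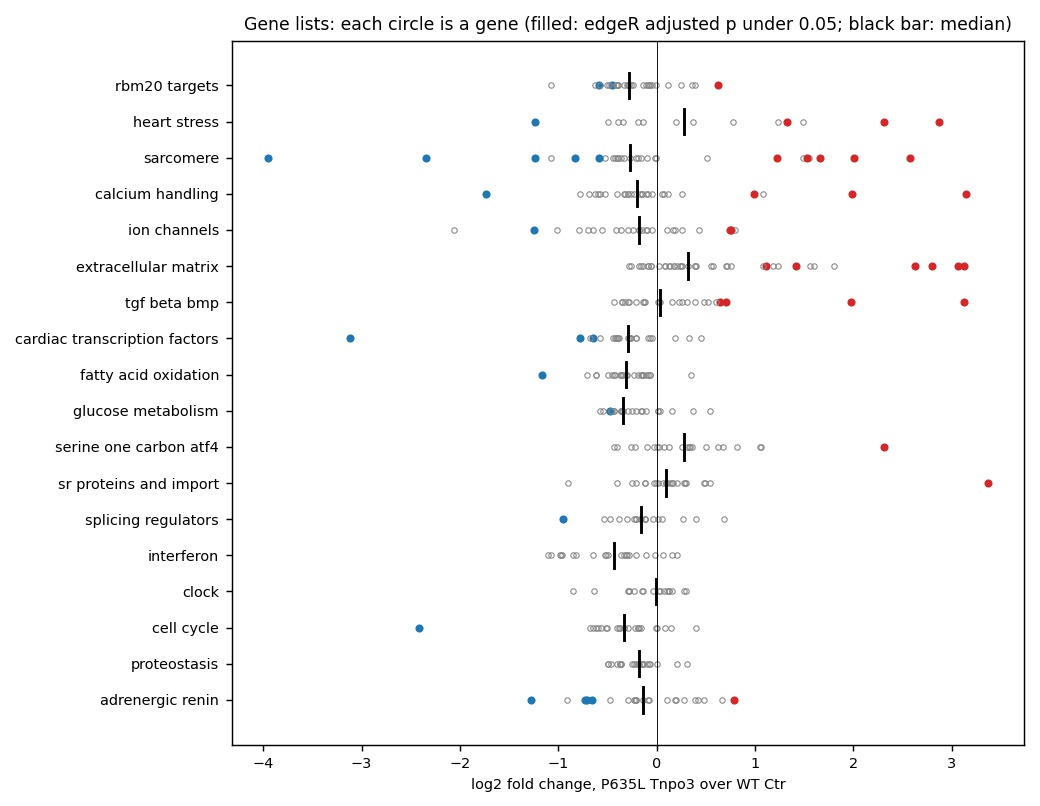
Each circle is a tested gene of 1 of 18 lists, placed by its log2 fold change of P635L Tnpo3 over WT Ctr, and black bars are list medians. Filled circles passed an edgeR adjusted p of 0.05 (red higher, blue lower), as 6 of 41 matrix genes did on the higher side and 3 of 23 cardiac transcription factors on the lower.

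Markers of cell types were read from lists as well. By edgeR's adjusted test 0 of 8 cardiomyocyte markers were called (5 at an unadjusted p under 0.05, and 1 by DESeq2). All 8 fold changes were negative (median -0.40), and their summed level was 75128 to 89482 CPM in WT Ctr and 56169 to 66686 CPM in P635L Tnpo3. These ranges did not overlap, and the part this has in the sarcomere, calcium and metabolic genes was not tested. In whole ventricle, fewer cells of a type and less RNA per cell cannot be told apart. Calls by edgeR also numbered 0 among 7 fibroblast markers (1 at an unadjusted p under 0.05, and 1 by DESeq2), 5 endothelial (2 and 0), 5 smooth muscle or pericyte (1 and 0), 6 macrophage (0 and 0), 7 lymphocyte (4 and 0), 2 adipocyte (1 and 1) and 4 erythroid (0 and 0). Summed fibroblast markers were at 781 to 1183 CPM against 889 to 1429 CPM. Of 4 atrial markers tested, 3 had positive fold changes (median 1.51) and Nppa alone was called. Myl1, an atrial and skeletal light chain, did not pass the test (1.54 on the log2 scale, edgeR adjusted p = 0.0782). The other atrial genes Myl7, Sln and Bmp10 were at or under 1.03 CPM in all 8 libraries. Of 4 skeletal muscle markers tested, 3 had positive fold changes, and Tnni2 and Tnnt3 were called. Ckm went the other way (-0.41 on the log2 scale) and was not called. Myh4 was at 0 CPM in both groups and Myh2 at or under 0.058 CPM in all 8 libraries.

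Splicing was read from the authors' rMATS tables, which give an inclusion level from 0 to 1 (the share of transcripts that hold an exon, part of an exon or an intron) for 4 libraries of each group in an order that is not stated. Events counted as called had an rMATS FDR under 0.05, an inclusion difference of at least 0.1 and at least 10 junction reads per library on average in both groups. By this rule 734 of 34636 events (2.12%) in 612 genes were called, 387 (1.12%) with higher and 347 (1.00%) with lower inclusion in P635L Tnpo3. Skipped exons were called in 320 of 23980 cases (1.33%), with 120 higher (0.50%) and 200 lower (0.834%), and retained introns in 225 of 2805 (8.02%). Mutually exclusive exons gave 63 calls (2.00%), alternative 3' splice sites 79 (2.65%) and alternative 5' splice sites 47 (2.75%). In 254 of the 734 events the libraries did not overlap between groups, against 2.47% of all events. In 28 genes both expression and splicing were called, 4.89% of the genes called in expression and 4.58% of those called in splicing.

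Limma, applied to inclusion reads over skipping reads on a log2 scale and thus to the spread between libraries, called 12 of 17083 events (0.0702%), and 1534 events had an unadjusted p under 0.05. Of the 12, 7 also met the rMATS rule. Among them were 4 events of Tpm2, 3 of Nrap, and 1 each of Limch1, Ttn, Rnf10 and Tnpo3. With 1 library left out, limma called between 1 and 5 events.

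Known targets of RBM20 held 26 called events among 783 tested (3.32%, against 2.12% of all events), 18 with higher and 8 with lower inclusion, in 9 of the 29 target genes with a tested event. Titin (Ttn), the spring of the sarcomere, held 12 of the 26 among its 112 tested events, and 11 of the 12 had higher inclusion. The share above that of all events thus rests on Ttn. Without Ttn the share of the other targets was no higher than that of all events, and the difference was not tested. Camk2d and Mlip had 2 each, and Pdlim3, Ryr2, Kcnip2 and Nrap 1 each. The other 20 targets had none, among them Ldb3 (15 events tested), Cacna1c (21), Trdn (72), Tpm1 (22) and Tnnt2 (46). In expression, 3 of 30 targets were called, namely Pdlim3 (log2 fold change 0.62), Tpm1 (-0.59) and Mlip (-0.45), and the call for Mlip was lost in 12 of 17 alternatives. That is 10% of the list, against 3.07% of all genes tested. Total Ttn was uneven in wild-type hearts, at 1705, 7572, 2261 and 9422 CPM against 3076, 2053, 2759 and 2054 CPM in P635L Tnpo3. The 2 high libraries were those rich in ENSMUSG00000119584, and the part of this in the Ttn events was not tested.

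The target exons that carried the difference are shown with 3 bases at each end in capitals, where the splice sites join. All lie inside coding sequence of GENCODE M21 transcripts (GRCm38), matched to the deposited GRCm39 positions by exon structure and written 5' to 3' on the gene's strand. The Ttn exons are at chr2:76657339-76657422 and chr2:76692456-76692533 (minus strand), that of Camk2d is at chr3:126599506-126599565 (plus strand) and that of Mlip at chr9:77081241-77081285 (minus strand).
Ttn exon of 84 bases: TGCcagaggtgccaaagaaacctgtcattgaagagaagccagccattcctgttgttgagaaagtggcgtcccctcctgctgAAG
Ttn exon of 78 bases: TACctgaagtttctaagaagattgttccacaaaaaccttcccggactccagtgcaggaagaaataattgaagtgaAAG
Camk2d exon of 60 bases: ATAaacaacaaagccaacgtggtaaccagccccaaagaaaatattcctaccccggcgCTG
Mlip exon of 45 bases: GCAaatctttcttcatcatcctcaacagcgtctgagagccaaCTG
Each of the 4 lengths is a multiple of 3, so an added exon keeps the reading frame. Among all called skipped exons, 57.5% of those with higher inclusion and 42% of those with lower inclusion had such a length, against 40.7% of those tested.

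The 84-base Ttn exon had inclusion levels of 0, 0.077, 0 and 0.159 in WT Ctr and 0.659, 0.288, 0.448 and 0.694 in P635L Tnpo3. All treated mutant libraries were above all wild-type ones, with means of 0.059 ± 0.0759 and 0.522 ± 0.19 (SD, n = 4 each), and the mean in P635L Ctr was 0.974. The exon did not pass limma (adjusted p = 0.362), and the wild-type levels of 0 rest on 2 reads and 1 read. The 78-base Ttn exon was at 0.157, 0.177, 0.149 and 0.226 against 0.498, 0.448, 0.548 and 0.552 (limma adjusted p = 0.0394), and at a mean of 1.00 in P635L Ctr. Both of these exons were thus held by a minority of wild-type transcripts, by close to as many transcripts as lacked them in treated mutant hearts, and by nearly all transcripts of mutant hearts with the control virus. Events from the rMATS tables were named among those without overlap between the groups, so no permutation p is given for them.

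Camk2d encodes the delta subunit of calcium/calmodulin-dependent kinase II, and the 60-base exon belongs to its variable linker. Its inclusion was 0, 0.045, 0.061 and 0.071 in WT Ctr and 0.372, 0.122, 0.587 and 0.244 in P635L Tnpo3, at a mean of 25.5 junction reads per library in the latter. Treated mutant libraries differed widely among themselves but lay above all wild-type libraries, and the mean in P635L Ctr was 0.958. Mlip, a lamin-interacting protein of muscle, had a 45-base exon at 0.077, 0, 0.293 and 0.289 in WT Ctr and at 0.587, 0.549, 0.606 and 0.321 in P635L Tnpo3. Wild-type libraries held 4 to 19 reads for it. The exons of Camk2d and Mlip did not pass limma (adjusted p = 0.454 and 0.531).

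Exons were also lost rather than gained, as in Nrap. Nrap, an actin-anchoring protein of the growing sarcomere, held a 108-base exon (chr19:56342552-56342659) in all counted wild-type reads, at an inclusion of 1 in each of 4 libraries. In P635L Tnpo3 it was at 0.853, 0.884, 0.825 and 0.881 (limma adjusted p = 0.0205), and at a mean of 0.845 in P635L Ctr. The loss was small but present in each treated mutant library.

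Tpm2 changed in transcript form as well as in amount. The gene has a pair of alternative inner exons of 76 bases each, at chr4:43519003-43519078 (first in the transcript) and chr4:43518644-43518719 (next), both on the minus strand. They are printed because inclusion passed from one towards the other, and capitals mark the 35 of 76 positions at which they differ, an identity of 53.9%.
Tpm2 first exon: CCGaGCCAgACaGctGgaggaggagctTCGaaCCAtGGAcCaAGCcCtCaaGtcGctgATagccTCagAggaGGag
Tpm2 next exon: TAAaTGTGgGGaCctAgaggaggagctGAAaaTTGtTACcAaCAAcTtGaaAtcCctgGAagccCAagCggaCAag
The first exon was included at 0.918, 0.798, 0.964 and 0.941 in WT Ctr and at 0.477, 0.478, 0.431 and 0.361 in P635L Tnpo3 (limma adjusted p = 0.0205). The next exon was at 0.016, 0.073, 0.005 and 0.008 in WT Ctr and at 0.395, 0.299, 0.4 and 0.419 in P635L Tnpo3 (limma adjusted p = 0.0205). Groups lay far apart for both, in opposite directions.

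The last exon of Tpm2 differed too. An upstream 3' splice site that makes it 1142 bases longer (chr4:43514711-43516003) was used at 0.09, 0.117, 0.022 and 0.058 in WT Ctr and at 0.599, 0.593, 0.663 and 0.652 in P635L Tnpo3 (limma adjusted p = 0.00625), with a mean of 1594 junction reads per library in the latter. The mean was 0.722 in P635L Ctr and 0.0752 in WT Tnpo3. For the 2 inner exons the P635L Ctr means were 0.348 and 0.49. Total Tpm2 rose in the same hearts, as given above.

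**Figure D4:**
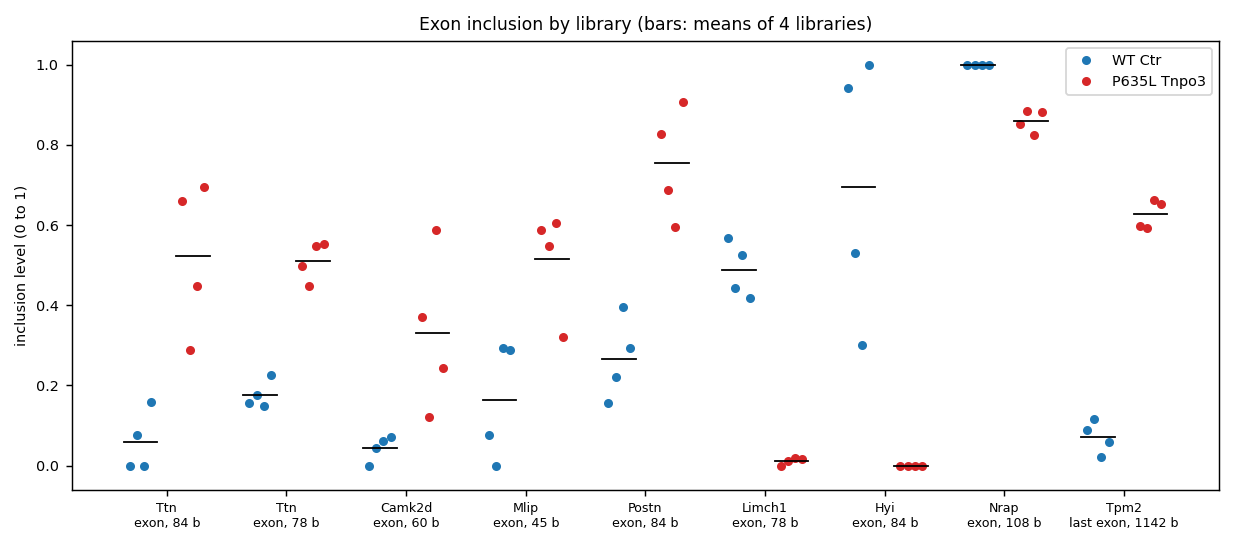
Inclusion level from 0 to 1 for 9 events in the 4 WT Ctr (blue) and 4 P635L Tnpo3 (red) libraries, with bars at group means and event lengths in bases under each name. The Ttn, Camk2d, Mlip and Postn exons and the longer Tpm2 last exon stand higher in P635L Tnpo3 and the Limch1, Hyi and Nrap exons lower, with no overlap in any.

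Outside the target list, the largest losses among called skipped exons without overlap were in Hyi and Limch1. Hyi, a hydroxypyruvate isomerase, held an 84-base exon (chr4:118217503-118217586) at 0.943, 0.531, 0.302 and 1 in WT Ctr and at 0 in all 4 P635L Tnpo3 libraries, over a mean of 34.5 junction reads per library. Wild-type levels were spread widely and rest on 3 to 30 reads per library, and limma did not call the exon (adjusted p = 0.359). It was at 0 in P635L Ctr as well, and at a mean of 0.392 in WT Tnpo3. Limch1, an actomyosin regulator, held a 78-base exon (chr5:67193369-67193446) at 0.568, 0.442, 0.526 and 0.419 in WT Ctr and at 0, 0.012, 0.018 and 0.017 in P635L Tnpo3. This exon was all but absent from treated mutant hearts (limma adjusted p = 0.00144) and from P635L Ctr (mean 0.006). Among gains, Postn, the matricellular protein periostin, held an 84-base exon (chr3:54293092-54293175) at 0.155, 0.221, 0.395 and 0.294 in WT Ctr and at 0.828, 0.687, 0.596 and 0.908 in P635L Tnpo3. Most treated mutant transcripts held it and most wild-type ones lacked it, but limma did not call it (adjusted p = 0.322). Total Postn did not pass the test either (1.56 on the log2 scale, SE 0.46, edgeR adjusted p = 0.0908). The exons of Hyi and Postn are printed as the largest loss and the largest gain among called skipped exons without overlap outside the targets, with 3 bases at each end in capitals, both on the plus strand.
Hyi exon of 84 bases: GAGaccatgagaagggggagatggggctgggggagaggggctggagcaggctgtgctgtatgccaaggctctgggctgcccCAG
Postn exon of 84 bases: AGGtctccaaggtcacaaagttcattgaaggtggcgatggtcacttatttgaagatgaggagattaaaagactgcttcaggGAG

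Deep reads allowed small differences to be seen. Rnf10, a ring-finger protein, held a 126-base exon at 0.991 to 0.994 in WT Ctr and at 0.948 to 0.957 in P635L Tnpo3 (limma adjusted p = 0.0205), over means of 1419 and 1363 junction reads per library. In Tnpo3 itself, an acceptor that adds 18 bases was used at 0.019, 0.032, 0.094 and 0.101 in WT Ctr and at 0.002, 0.001, 0.004 and 0 in P635L Tnpo3 (limma adjusted p = 0.0205). The mean was 0.0508 in P635L Ctr and 0.00425 in WT Tnpo3, so both groups given the Tnpo3 cDNA were low. Reads with the 18 bases numbered 1, 2, 7 and 8 in WT Ctr and 2, 3, 10 and 0 in P635L Tnpo3. Reads without them went from 44 to 61 up to 914 to 2698. The level was thus lower because reads without the 18 bases rose, and acceptor choice in the mouse gene itself was not tested.

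Apart from that of Tpm2, the splice-site shifts named by the rule lay in genes outside the heart lists. Kat2a, a histone acetyltransferase, used a 5' site that adds 195 bases at 0.278, 0.281, 0.38 and 0.243 in WT Ctr and at 0.5, 0.801, 0.565 and 0.589 in P635L Tnpo3. Abhd14a, a hydrolase-fold protein, went from 0 to 0.231 up to 0.265 to 0.577, on as few as 1 read in a wild-type library. Phkg2, a phosphorylase kinase subunit, went from 0.81 to 1 down to 0.37 to 0.797 and Rbm10, a splicing regulator, from 0.458 to 0.781 down to 0.283 to 0.446. Among 3' sites, Rfc1, a DNA replication factor, went from 0.089 to 0.46 up to 0.512 to 0.872, while Izumo4 went from 0.484 to 0.798 down to 0.22 to 0.376 and Hdac5, a class II histone deacetylase, from 0.289 to 0.505 down to 0.089 to 0.276. None of these 7 passed limma, with adjusted p-values from 0.454 to 0.558.

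Retained introns leaned to one side. Of 2805 introns tested, 183 (6.52%) in 174 genes had higher and 42 (1.50%) lower inclusion in P635L Tnpo3, and among the called introns without overlap between groups 65 were higher and 5 lower, where 6.02% of all introns tested had no overlap. Over all 2805 introns the mean inclusion was 0.325, 0.307, 0.346 and 0.337 in the WT Ctr libraries and 0.352, 0.351, 0.354 and 0.356 in the P635L Tnpo3 libraries. The treated mutant libraries lay within a very narrow range above all wild-type libraries. The difference of 0.0246 had a two-sided exact permutation p of 0.0286, with the measure chosen after the counts had been seen. Limma called 0 of 2501 introns (0.00%), and 289 had an unadjusted p under 0.05 (241 higher, 48 lower).

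Read depth at these introns moved with the groups. The median number of junction reads per intron was 56, 47, 81 and 74 in WT Ctr and 86, 104, 114 and 111 in P635L Tnpo3, and the part of depth in the difference was not tested. Over 2670 introns found in all 3 tables, P635L Ctr libraries had medians of 104 to 213 reads and mean inclusions of 0.29 to 0.322, and P635L Tnpo3 libraries had 90 to 121 reads and 0.329 to 0.334. WT Tnpo3 libraries, at 62 to 87 reads, had 0.284 to 0.328. The lowest P635L Tnpo3 library was thus just above the highest of the other groups, and these differences were not tested.

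**Figure D5:**
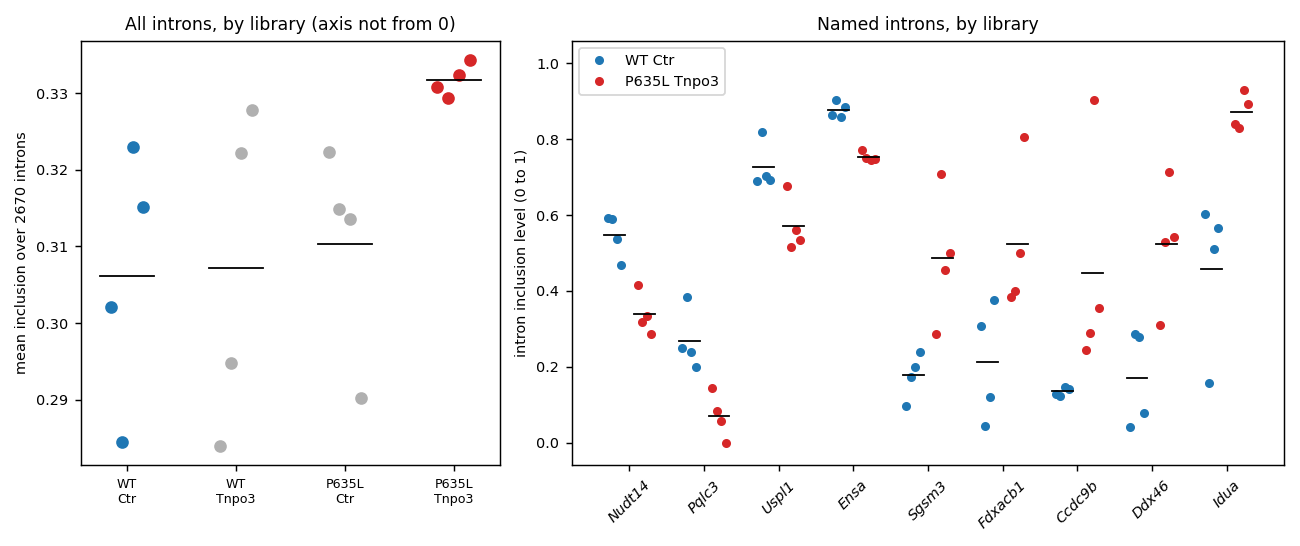
Left, mean inclusion over 2670 introns, 1 point per library and a bar at the group mean, on an axis that does not start at 0, where the 4 P635L Tnpo3 libraries sit at 0.329 to 0.334. Right, inclusion of 9 introns in WT Ctr (blue) and P635L Tnpo3 (red), the first 4 lower and the last 5 higher in P635L Tnpo3.

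The introns with the largest differences lay in genes outside the heart lists. Idua encodes a lysosomal iduronidase, and an intron of 88 bases (chr5:108828073-108828160, plus strand) was kept at 0.604, 0.156, 0.51 and 0.565 in WT Ctr and at 0.841, 0.829, 0.93 and 0.893 in P635L Tnpo3. Ccdc9b, a coiled-coil protein, kept an intron of 76 bases (chr2:118590931-118591006, minus strand) at 0.129, 0.122, 0.148 and 0.142 against 0.245, 0.289, 0.904 and 0.355. In Nudt14, a sugar-nucleotide hydrolase, an intron of 237 bases was kept less, at 0.593, 0.59, 0.538 and 0.469 against 0.416, 0.318, 0.333 and 0.286. For Ccdc9b, 1 treated mutant library stood far above the other 3. The short introns are printed with the first and last 2 bases, the GT and AG of the splice sites, in capitals.
Idua intron of 88 bases: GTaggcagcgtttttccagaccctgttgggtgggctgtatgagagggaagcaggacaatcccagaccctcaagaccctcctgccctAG
Ccdc9b intron of 76 bases: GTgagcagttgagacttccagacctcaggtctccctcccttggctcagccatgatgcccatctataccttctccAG
Ddx46, an RNA helicase of the spliceosome, kept an intron of 1618 bases at 0.042 to 0.286 against 0.31 to 0.714. Sgsm3, a small G protein regulator, went from 0.097 to 0.24 up to 0.286 to 0.708, and Fdxacb1, from 0.045 to 0.375 up to 0.385 to 0.806. Lower in P635L Tnpo3 were introns of Pqlc3 (0.2 to 0.385 against 0 to 0.143), Uspl1 (0.691 to 0.818 against 0.515 to 0.677) and Ensa, an inhibitor of protein phosphatase 2A (0.859 to 0.904 against 0.745 to 0.772). Called higher introns had a median length of 276 bases and called lower ones of 398.5 bases, against 246 over all tested.

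The target genes Ryr2 and Kcnip2 were among the genes with an intron of higher inclusion. Ryr2 is the calcium release channel of heart muscle, and Kcnip2 an accessory subunit of its transient outward current. In both introns the libraries of the groups overlapped. Their total counts did not pass the test, as for Ryr2 with a log2 fold change of -0.63 (edgeR adjusted p = 0.133).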

How the data were processed

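Left ventricular RNA was poly(A)-selected and made into stranded libraries, 1 per mouse, per the labels' protocols. The authors deposited raw counts per gene for 56953 genes, made with STAR 2.7.9a, featureCounts 2.0.6 and GRCm39 per the submitters' processing notes. The deposited DESeq2 table gives log2 fold changes and p-values (adjusted p-values among them), used only for its count of genes. The authors deposited rMATS tables per the file headers, with counts of junction reads, an inclusion level as a fraction of 1, a difference of mean levels (a score from -1 to 1), p-values and FDR. The version of rMATS, its settings and the use of strand are not given in the sources used here.

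Symbols were taken from the rMATS tables for 11276 genes and from a supplied name table for 40786. Counts of all 16 libraries were fitted in R 4.3.3 with edgeR 4.0.16 (TMM, filterByExpr, quasi-likelihood F test with robust fits, 1 mean per group, 12 residual degrees of freedom). P-values were two-sided and adjusted by Benjamini-Hochberg over 18662 genes. On 3 simulated sets with 200 changed genes, 57.2% of 2-fold and 78.7% of 4-fold changes were recovered and 5.88% of calls were false. The simulated spread of a gene was the same in all groups, unlike the measured 0.329 in WT Ctr and 0.175 in P635L Tnpo3. The share of false calls under such unequal spread was not tested.

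Junction reads were tested with limma 3.58.1 (pseudocount 0.5, precision weights, at least 10 inclusion and 10 skipping reads over the 8 libraries). On 16580 simulated events it recovered 16.8% of inclusion changes of 0.2 and 79.8% of 0.4, with 5.88% of calls false. The variance added to counting error was the same for all simulated events and both groups. Tables of mutually exclusive exons list 1 of the 2 exons, so their levels are not printed.

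Named genes are the called genes with the 12 largest rises and 12 largest falls, given no overlap between groups, a mean of 1 log2 CPM or more and a symbol other than a predicted-gene number, and called list members. Named events are called events without overlap, the 5 highest and 5 lowest introns, the 2 highest and 2 lowest of each other type and the largest of each RBM20 target. Events called by limma were named after their values were seen. Genes without a call that are named beside them are list members. The members and lists were chosen with earlier results of these data known. The alternatives were edgeR's RLE and upper-quartile factors, DESeq2 1.42.0, other filters, the replicate number as a block, other thresholds and leaving out libraries. Of 25 exons and introns looked up in GENCODE M21, 24 were found. Some genes and events that these rules take are not reported here.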

Additional observations from a re-analysis of the deposited data

Results flagged for a closer look

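Among 52 groups of 4 values checked (the named genes and the mean intron inclusion), 4 had 1 mouse further from the others than Dixon's limit allows, and chance does this in about 1 in 20 groups. Nppa was at 4506 CPM in P635L Tnpo3 replicate 4, while the other 3 treated mutant hearts lay between 916 and 1198 CPM. Gbp10 was at 86.5 CPM in WT Ctr replicate 1 against 3.59 to 6.46 CPM in the other wild-type hearts. It was also at 0.806 CPM in P635L Tnpo3 replicate 2 against 0.195 to 0.25 CPM in the rest of its group. Lrtm1 was at 649 CPM in WT Ctr replicate 4 against 564 to 574 CPM, far above every treated mutant heart in all 4 wild-type mice.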

How the results depend on the processing

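The count of 573 genes became 1113 with DESeq2, 307 when a 2-fold change was also asked for and 319 without WT Ctr replicates 2 and 4 (and WT Tnpo3 replicate 4), in which 1 gene held over 10% of counts. With 1 library left out it ranged from 282, for P635L Tnpo3 replicate 4, to 687, for WT Ctr replicate 1, and it was 352 without WT Ctr replicate 2 and 360 without P635L Tnpo3 replicate 2. The labels number mice 1 to 4 in each group, but same-numbered mice did not deviate together (correlations of -0.228, -0.133, 0.00559 and -0.211), so they share only a number. With that number as a replicate block, 490 genes were called. Fitted to the 8 libraries of these groups alone, 390 genes were called. The Tnpo3 log2 fold change stayed called, at 3.11 to 3.59. That of Rbm20, not called in any setting, was -0.12 and ranged from -0.262 (without WT Ctr replicate 1) to 0.0647 (without WT Ctr replicate 4) with 1 library left out, and was 0.0202 without WT Ctr replicates 2 and 4 and 0.10 without libraries high in Xist. The cause of these changes was not tested. Splicing calls fell from 734 to 439 and those of introns from 225 to 132 at an FDR under 0.01. At a difference of at least 0.2 they were 239 and 69, and without overlap between groups 254 and 70. Limma called 7 events without weights and, with 1 library left out, between 1 and 5 (in place of 12), on 3 libraries against 4. Inclusion levels that rest on few reads, as for Camk2d (25.5 per library in P635L Tnpo3) and Mlip (18.8), are limited by depth.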

Other observations

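Among the 8 hearts, P635L Tnpo3 replicate 4 had the lowest Tnpo3 level of its group, at 234 CPM, and the highest level of Nppa (4506 CPM), Ltbp2 (66.3 CPM), Mybpc2 (160.1 CPM), Tpm2 (227 CPM), Col8a1 (92.5 CPM) and Ace (150.2 CPM). Hopx was lowest in the same heart, at 15.02 CPM. Replicate 2, with the highest Tnpo3 level at 723 CPM, had the highest Hopx level of its group (43.1 CPM) and the highest Comp level (57.9 CPM). These are values of single mice, chosen after they were seen, and no relation was tested over 4 mice.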
